A study of Homo sapiens with 12 samples.

Results

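Alpha and beta tubulins are the paired proteins that microtubules are built from, and 10 of their genes were followed here, 4 for alpha tubulin (TUBA1A, TUBA1B, TUBA1C and TUBA4A) and 6 for beta tubulin (TUBB, TUBB2A, TUBB2B, TUBB3, TUBB4B and TUBB6). They were chosen by gene name from the 58735 genes of the deposited expression table. Poly(A) RNA had been sequenced from 12 samples labelled Huh7 and HepG2, which are names of human liver tumour lines. Each line had 3 samples with geniposide for 48 h and 3 control samples at 48 h. Geniposide is an iridoid glycoside of gardenia fruit, and the study's title names ferroptosis and the oxidase DUOX1 as its subject. The labels give no dose, no vehicle and no genetic change in any group, and they leave out whether the replicates were grown separately. The p-values therefore measure a spread between samples that may be only technical.

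A microtubule is a hollow polymer of alpha-beta dimers, and it grows and shrinks as dimers are added and lost at its ends. Newly made alpha and beta chains are folded by the chaperonin TRiC, with prefoldin handing chains to it, and are then joined by the tubulin cofactors TBCA to TBCE. Cells also adjust tubulin supply through the mRNA: when free dimer is in excess, the factor TTC5 recognises the start of a tubulin chain as it leaves the ribosome, and SCAPER brings in the CCR4-NOT deadenylase, so that the mRNA is degraded. The isotypes differ mainly in their tails and in where they are made, with TUBA1B, TUBA1C, TUBB and TUBB4B present in most dividing cells and TUBA1A, TUBB2A, TUBB2B and TUBB3 best known from neurons.

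Each library held between 15056655 and 17211659 fragments assigned to genes. Of 12 hepatocyte markers, among them ALB, APOB, TTR and HNF4A, 0 reached 1 FPKM in any group (fragments per kilobase of gene, scaled to library size), and the list summed to 0.315 to 0.577 FPKM in treated and 0.373 to 0.469 FPKM in control Huh7 libraries, and to 0.326 to 0.376 FPKM in treated and 0.245 to 0.562 FPKM in control HepG2 libraries. ALB, APOB, TTR, AFP and TAT averaged 0 FPKM in both HepG2 groups, as did APOB and FGB in both Huh7 groups. These values go against the liver origin that the names imply. Huh7 and HepG2 are therefore used here only as the names on the labels. Treated Huh7 library 3 stood apart from its replicates: fragment counts differed between it and treated Huh7 libraries 1 and 2 by a chi-square of 51.3 and 53.0 per degree of freedom. Treated HepG2 library 3 differed from treated HepG2 libraries 1 and 2 by 6.41 and 7.18, against 2.29 to 3.23 for all other replicate pairs. Where leaving out treated Huh7 library 3 changed a call or direction, the value without it is given too. This was done for the members and for the genes, counts and medians of the gene lists given here.

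The start of the chain that TTC5 recognises is encoded by the first bases of the coding region. These bases are shown for 6 members whose mRNAs differed in their changes with geniposide. The lines give 30 bases from the start codon, 5′ to 3′ on the coding strand, from the GENCODE 29 transcripts on GRCh38, with the 12 bases of the first 4 codons in capitals. TUBA1A and TUBA1B lie on chromosome 12, TUBA4A on chromosome 2, TUBB and TUBB2B on chromosome 6 and TUBB6 on chromosome 18, and in the alpha genes an intron, left out here, interrupts these bases.
TUBA1A: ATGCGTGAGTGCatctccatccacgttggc
TUBA1B: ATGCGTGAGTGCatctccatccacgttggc
TUBA4A: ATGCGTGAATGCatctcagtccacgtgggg
TUBB: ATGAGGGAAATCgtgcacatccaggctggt
TUBB2B: ATGCGTGAGATCgtgcacatccaggcgggc
TUBB6: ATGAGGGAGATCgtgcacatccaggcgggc
TUBA1A, TUBA1B and TUBA1C had the same 30 bases. The part of these bases in the changes with geniposide was not tested. The capitals took 6 forms over the 10 genes, with TUBB and TUBB4B sharing theirs, TUBB3 and TUBB6 sharing theirs, and the remaining 3 genes having their own. All forms in the alpha genes encode the residues MREC and all forms in the beta genes MREI, so the differences within each family are synonymous.

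Several of these genes are hard to count separately. Over the coding region TUBA1A matched TUBA1B at 97.2% and TUBA1C at 95.9% of bases, and TUBA1B matched TUBA1C at 96.8%. TUBB2A and TUBB2B matched at 98.1% and shared an unbroken run of 725 bases. The sources used here do not give how fragments that fit several copies were assigned, so the split between TUBA1A, TUBA1B and TUBA1C, and above all between TUBB2A and TUBB2B, is uncertain. The library protocol in the labels also marks no strand, and TUBA1A (chromosome 12, minus strand, 49184796 to 49189324 on GRCh38) overlaps TUBA1C (plus strand, 49188736 to 49274603) over 490 exonic bases, which is 14.3% of the exonic length of TUBA1A. Fragments from the overlap cannot be told apart.

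In Huh7 libraries 8 of the 9 members that passed the filter on low values (at least 1 FPKM in 3 or more libraries) changed with geniposide, 7 of them downward and 1 upward, at an adjusted p under 0.05 in limma on log2(FPKM + 1) with adjustment over all 15518 genes tested. The same test called 34.5% of all genes in this comparison, 16.4% upward and 18.1% downward. No overlap between the 3 treated and 3 control values was seen for 1 member above and 7 below controls, beside 21.3% and 22.6% of all genes. Changes are given as differences in log2(FPKM + 1) ± SE, or log2 units. Median change over the 9 was −0.52 on the log2 scale, against 0.00 over all genes tested. TUBB3 was below the filter. In bulk RNA, fewer cells of a type and less RNA per cell cannot be told apart.

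In HepG2 libraries 8 of 9 members also changed, again 7 downward and 1 upward, beside 42.5% of all genes called, 21.0% upward and 21.5% downward. Again 1 member lay wholly above and 7 wholly below controls, beside 29.4% of all genes in each direction. Their median change was −0.41, against 0.00 over all genes tested. The gene that rose was TUBA1A in both lines. The 7 that fell in each line were TUBA1B, TUBA1C, TUBA4A, TUBB, TUBB2A, TUBB4B and TUBB6.

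**Figure D1:**
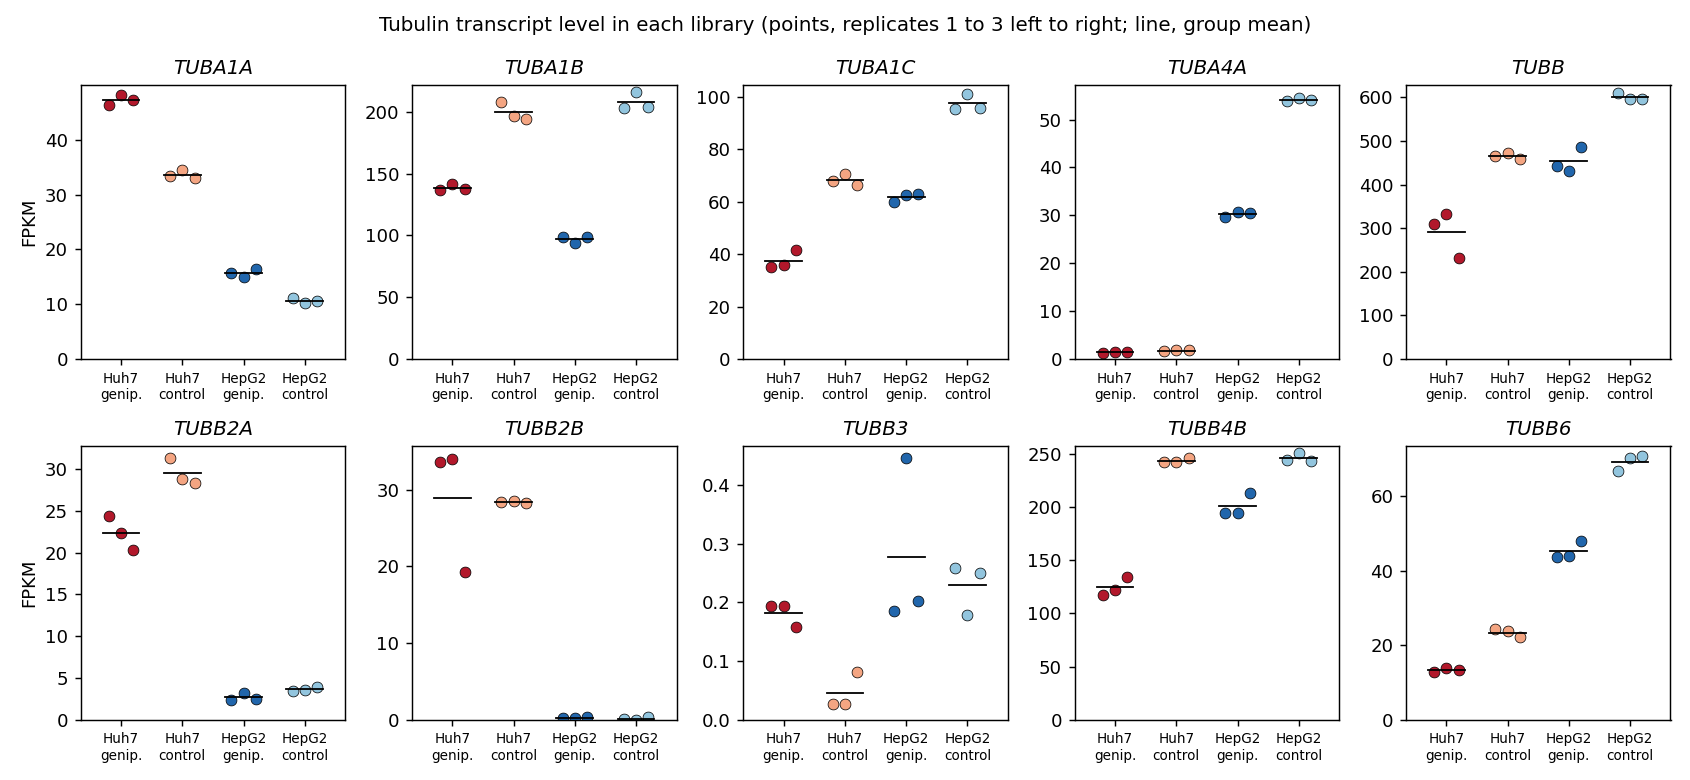
Level of each tubulin transcript in each library, in FPKM on linear axes that start at 0 and differ between panels. Points are libraries 1 to 3 of a group from left to right and lines are group means. TUBA1A is higher in the 3 treated libraries of each line, most other members are lower, and treated Huh7 library 3 lies apart for TUBB (232 FPKM) and TUBB2B (19.2 FPKM).

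TUBA1B, a ubiquitous alpha isotype and the most abundant alpha transcript in all 4 groups, had 137, 141 and 137 FPKM in treated Huh7 libraries and 208, 197 and 194 FPKM in control Huh7 libraries. In HepG2 it had 98.6, 93.8 and 99.2 FPKM with geniposide and 203, 216 and 204 FPKM in controls. All treated libraries lay below all controls of their line. TUBA1B fell by 0.52 ± 0.05 log2 units in Huh7 (limma adjusted p = 2.82e-05) and by 1.09 ± 0.05 in HepG2 (limma adjusted p = 1.19e-07), which are ratios of the means of 0.694 and 0.468. An antisense gene, AC011603.2, covers 36.6% of its exonic length on the other strand, and was listed at 0.122 and 0.0357 FPKM in treated and control Huh7 libraries and at 0.261 and 0.181 FPKM in treated and control HepG2 libraries.

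TUBA1C, an alpha isotype that many proliferating cells make, had 35.2, 36.0 and 41.5 FPKM in treated Huh7 libraries, against 67.9, 70.6 and 66.5 FPKM in controls. The HepG2 values were 59.8, 62.5 and 63.1 FPKM with geniposide and 95.5, 101 and 95.7 FPKM without it. The groups did not overlap in either line. TUBA1C fell by 0.85 ± 0.06 log2 units in Huh7 (limma adjusted p = 7.62e-06) and by 0.65 ± 0.06 in HepG2 (limma adjusted p = 1.78e-05).

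TUBA1A, the alpha isotype whose mutations cause malformations of the developing brain, went the other way. It had 46.4, 48.1 and 47.3 FPKM in treated Huh7 libraries, against 33.4, 34.5 and 33.0 FPKM in controls, and 15.7, 15.05 and 16.4 FPKM in treated HepG2 libraries, against 11.2, 10.3 and 10.5 FPKM in controls. Each treated library was above each control of its line. TUBA1A rose by 0.48 ± 0.05 log2 units in Huh7 (limma adjusted p = 4.95e-05) and by 0.52 ± 0.05 in HepG2 (limma adjusted p = 1.26e-05), or 1.40-fold and 1.48-fold between means. The difference between the lines was 0.04 (95% confidence interval −0.10 to 0.19, limma adjusted p = 0.665).

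The ratio of TUBA1A to TUBA1B within a library does not depend on how libraries were scaled, although it does depend on how fragments were split between both copies. TUBA1A over TUBA1B was 0.339 to 0.345 in treated and 0.161 to 0.175 in control Huh7 libraries, and 0.159 to 0.166 in treated and 0.0476 to 0.0550 in control HepG2 libraries. With the FPKM of TUBA1A, TUBA1B and TUBA1C added up as 1 gene, the sum fell by 0.43 in Huh7 (limma adjusted p = 7.03e-05) and by 0.85 in HepG2 (limma adjusted p = 4.36e-07). In FPKM, TUBA1A rose by less than its close copies fell.

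TUBA4A encodes an alpha chain that lacks the tyrosine at the tail end of other alpha tubulins, and its level set the lines apart. HepG2 libraries had 29.7, 30.6 and 30.5 FPKM with geniposide and 53.9, 54.6 and 54.0 FPKM in controls, whereas Huh7 libraries had 1.34, 1.43 and 1.57 FPKM with geniposide and 1.66, 1.82 and 1.79 FPKM in controls. It fell by 0.82 ± 0.05 log2 units in HepG2 (limma adjusted p = 7.59e-07). The fall of 0.17 ± 0.05 log2 units in Huh7 (limma adjusted p = 0.0177) rested on 102 to 119 fragments per treated library and 117 to 125 per control, and the call was lost without control library 2 or 3 or treated library 1 (adjusted p 0.0675, 0.0604 and 0.0559), with Huh7 fitted alone (0.114), with voom on recovered fragments (0.222) and with their sum as the library total (0.0617). STK16, a kinase gene on the opposite strand, overlaps 15.4% of the exonic length of TUBA4A, and had 4.65 FPKM in treated and 3.45 FPKM in control HepG2 libraries (limma adjusted p = 0.0609).

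TUBB, the beta isotype of most dividing cells, was the most abundant of the 10 transcripts in every library. Treated Huh7 libraries had 310, 332 and 232 FPKM, against 465, 472 and 459 FPKM in controls. Treated HepG2 libraries had 443, 431 and 485 FPKM, against 610, 596 and 595 FPKM in controls. TUBB fell by 0.69 ± 0.11 log2 units in Huh7 (limma adjusted p = 0.000889), and by 0.53 without treated Huh7 library 3, the lowest of them (adjusted p = 3.27e-05). Its fall of 0.41 ± 0.11 log2 units in HepG2 had an adjusted p of 0.0123 in limma, and of 0.0858 when genes below the filter were tested too.

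TUBB4B, an isotype made in most tissues and abundant in cilia, had the largest estimated fall of the 7 in Huh7 and the smallest in HepG2. It had 117, 122 and 134 FPKM in treated Huh7 libraries, against 242, 242 and 246 FPKM in controls, a fall of 0.97 ± 0.06 log2 units (limma adjusted p = 3.13e-06). HepG2 libraries had 194, 194 and 213 FPKM with geniposide and 244, 251 and 243 FPKM in controls, a fall of 0.30 ± 0.06 log2 units (limma adjusted p = 0.00206). Means in control libraries of the lines were 246 FPKM in HepG2 and 243 FPKM in Huh7 on the deposited scale.

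TUBB6 is a divergent beta isotype that destabilises microtubules when overproduced in cultured cells. Its FPKM was 12.9, 13.9 and 13.3 in treated and 24.4, 23.7 and 22.2 in control Huh7 libraries, and 43.8, 44.1 and 48.1 in treated and 66.7, 70.3 and 70.8 in control HepG2 libraries. It fell by 0.77 ± 0.05 log2 units in Huh7 (limma adjusted p = 6.67e-06) and by 0.60 ± 0.05 in HepG2 (limma adjusted p = 1.24e-05). AFG3L2, a mitochondrial protease gene on the other strand, covers 20.3% of the exonic length of TUBB6, and itself fell in Huh7, to 6.82 FPKM with geniposide against 7.62 FPKM in controls (limma adjusted p = 0.0326), and in HepG2, to 12.6 FPKM against 17.6 FPKM (limma adjusted p = 2.12e-05). How many fragments the pair shares was not tested.

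TUBB2A and TUBB2B are near-identical beta isotypes of the brain, neighbours on chromosome 6, and were largely Huh7 transcripts here. TUBB2A had 24.4, 22.3 and 20.3 FPKM in treated and 31.4, 28.9 and 28.3 FPKM in control Huh7 libraries, a fall of 0.39 ± 0.09 log2 units (limma adjusted p = 0.0084). In HepG2 it had 2.42, 3.23 and 2.44 FPKM with geniposide and 3.50, 3.59 and 3.94 FPKM in controls, a fall of 0.35 ± 0.09 log2 units (limma adjusted p = 0.0116). The Huh7 call was lost with TPM scaling (adjusted p = 0.0521), and the HepG2 call when low genes were tested too (0.0557) and with voom (0.0881).

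TUBB2B depended on a single library. It had 33.6, 34.0 and 19.2 FPKM in treated Huh7 libraries, against 28.4, 28.5 and 28.3 FPKM in controls, so that libraries 1 and 2 were above all controls and library 3 below. With all libraries the change was −0.02 ± 0.18 (limma adjusted p = 0.967), and without treated library 3 it was 0.24 ± 0.08 (adjusted p = 0.0372). The neighbouring pseudogene TUBB2BP1 had 3.32, 3.14 and 1.85 FPKM in the treated and 2.92, 2.80 and 2.43 FPKM in the control Huh7 libraries. With TUBB2A and TUBB2B added up as 1 gene, the change was −0.19 ± 0.13 in Huh7 (limma adjusted p = 0.303) and −0.28 ± 0.13 in HepG2 (0.113). In HepG2 libraries TUBB2B had 9, 9 and 11 fragments with geniposide and 5, 1 and 10 in controls, where no change was detectable at this depth (limma adjusted p = 0.527).

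TUBB3, the beta isotype used as a marker of neurons and studied for its part in taxane resistance, was barely present. It had 16, 15 and 13 fragments in treated and 2, 2 and 6 in control Huh7 libraries, and 12, 28 and 14 in treated and 17, 12 and 16 in control HepG2 libraries. The Huh7 groups did not overlap, at 0.158 to 0.194 FPKM with geniposide and 0.0261 to 0.0818 FPKM in controls, but the change of 0.18 ± 0.08 did not pass the test without the filter (limma adjusted p = 0.38). Voom on recovered fragments gave 2.11 (adjusted p = 0.0281), a value that at so few fragments depends on the prior count. Another gene on the same strand, AC092143.1, covers 35.8% of the exonic length of TUBB3, and averaged 0.0167 FPKM in treated HepG2 libraries and was listed at 0 elsewhere.

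**Figure D2:**
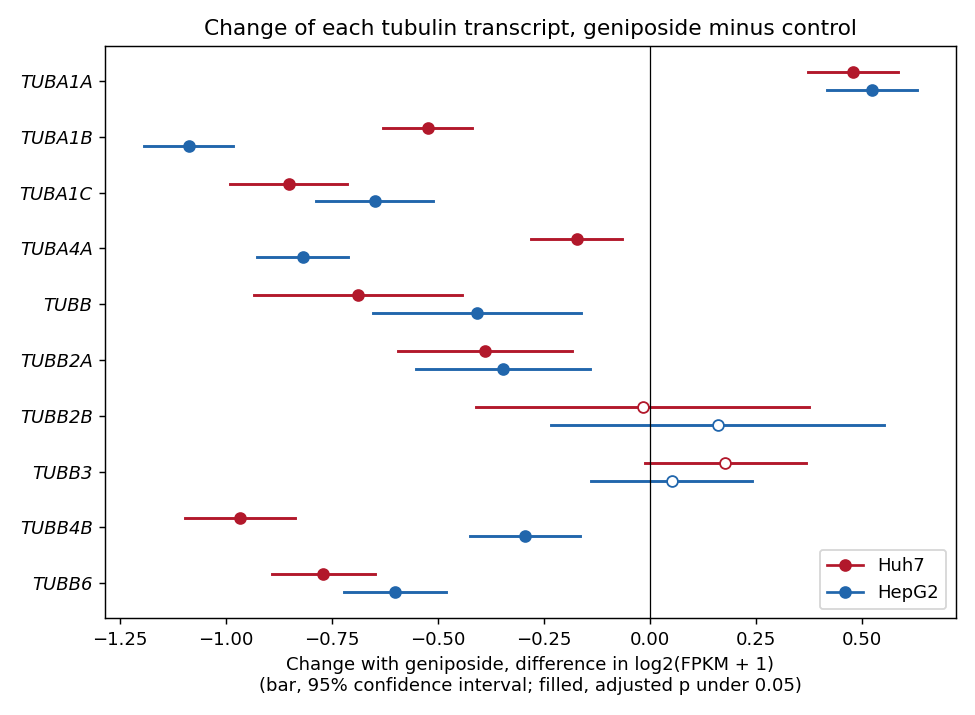
Change of each tubulin with geniposide in Huh7 (upper mark of each row) and HepG2 (lower mark), as the limma difference in log2(FPKM + 1), geniposide minus control, with its 95% confidence interval. Filled marks have an adjusted p under 0.05, and TUBB3 is from the fit without a filter. TUBA1A lies right of 0 in both lines, and the marks of the lines are farthest apart for TUBB4B (−0.97 and −0.30), TUBA4A (−0.17 and −0.82) and TUBA1B (−0.52 and −1.09).

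Whether a member changed by a different amount in HepG2 and Huh7 was tested as the difference between both effects, and 3 of 9 members passed, beside 27.8% of all genes, 14.1% with a more positive and 13.7% with a more negative effect in HepG2. TUBA1B fell further in HepG2, by 0.56 ± 0.07 (limma adjusted p = 0.000266). TUBA4A did so as well, by 0.65 ± 0.07 log2 units (limma adjusted p = 0.00012). TUBB4B fell less in HepG2, with a difference of 0.67 ± 0.08 (limma adjusted p = 0.000312). For TUBA1C the difference was 0.20 (95% confidence interval 0.01 to 0.40, limma adjusted p = 0.114), and 0.27 without treated Huh7 library 3 (adjusted p = 0.00273). The intervals for TUBB (−0.06 to 0.63) and TUBB6 (−0.002 to 0.34) leave room for a smaller fall in HepG2.

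The balance of alpha and beta transcripts moved in opposite directions in the lines. Summed over the 4 alpha genes the level was 225 ± 4.39 FPKM in treated and 303 ± 7.84 FPKM in control Huh7 libraries (SD, n = 3 each), and 205 ± 3.75 FPKM in treated and 370 ± 10.3 FPKM in control HepG2 libraries. Summed over the 6 beta genes it was 481 ± 55.1 FPKM in treated and 790 ± 5.84 FPKM in control Huh7 libraries, and 702 ± 41.3 FPKM in treated and 920 ± 5.51 FPKM in control HepG2 libraries. Relative to controls the alpha sum differed by −25.9% in Huh7 and −44.6% in HepG2, and the beta sum by −39.2% and −23.7%.

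Beta over alpha was 2.27, 2.31 and 1.84 in treated and 2.54, 2.62 and 2.65 in control Huh7 libraries, so it was lower with geniposide in all 3 libraries, and by more in library 3 than in the others. In HepG2 it was 3.35, 3.33 and 3.58 in treated and 2.54, 2.41 and 2.51 in control libraries, higher with geniposide in all 3. The ratio does not depend on library scaling, but it does depend on how fragments of close copies were assigned. No test was run on it, since it is a score over chosen members.

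**Figure D3:**
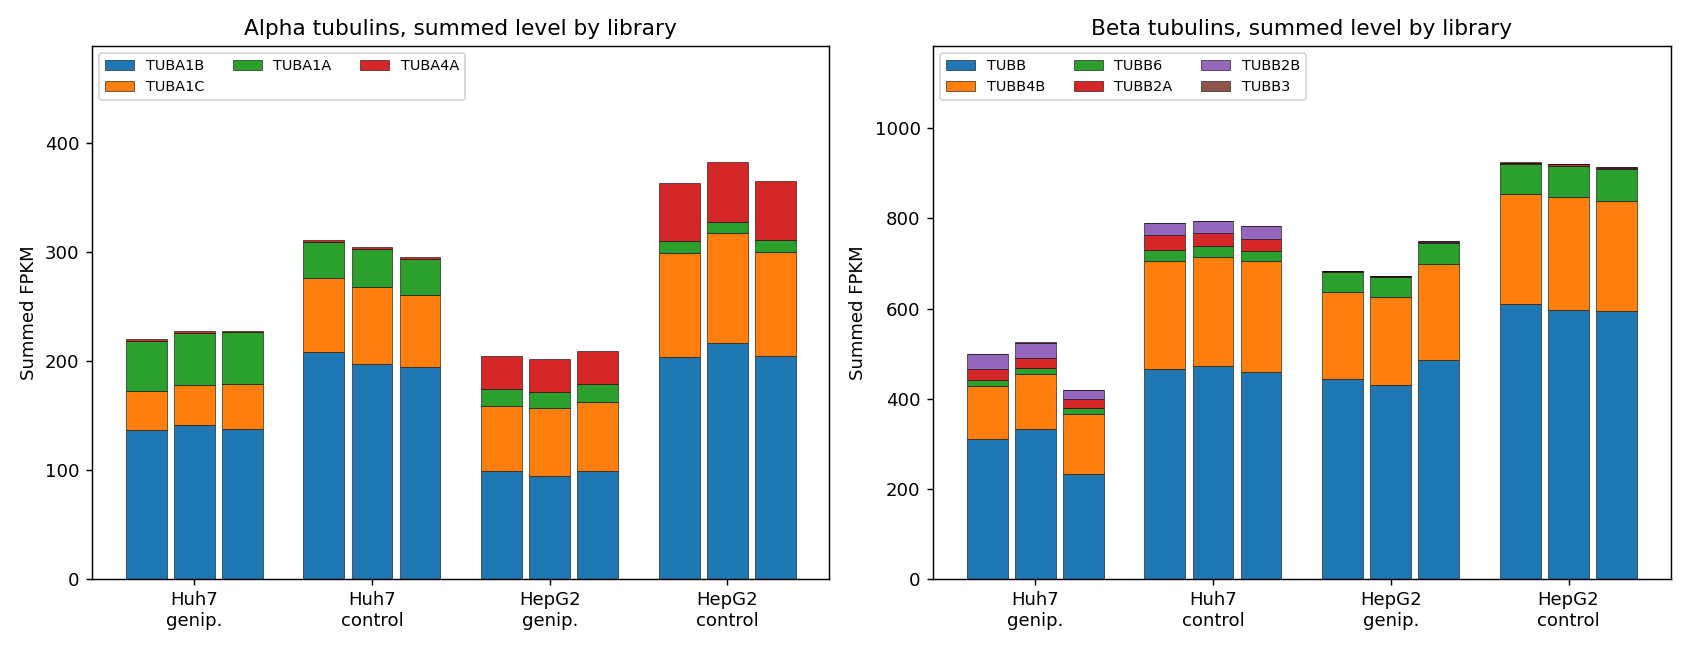
Stacked FPKM of the alpha tubulins (left) and the beta tubulins (right) in each library, 3 libraries per group, on linear axes from 0. The alpha stack shrinks more in HepG2 (205 against 370 FPKM) than in Huh7 (225 against 303 FPKM), the beta stack more in Huh7 (481 against 790 FPKM) than in HepG2 (702 against 920 FPKM), and TUBA1A widens within the alpha stack of both lines.

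Within the alpha pool the share of TUBA1A was higher with geniposide in both lines. It made up 21.0% of alpha FPKM in treated and 11.1% in control Huh7 libraries, and 7.67% in treated and 2.88% in control HepG2 libraries. TUBA1B made up 61.6% in treated and 65.8% in control Huh7 libraries, and 47.4% in treated and 56.1% in control HepG2 libraries. The share of TUBA4A stayed within 1 SD of the control mean in HepG2, at 14.8% with geniposide and 14.6% in controls. TUBB held 62.3%, 63.3% and 55.4% of beta FPKM in treated Huh7 libraries and 58.8%, 59.3% and 58.5% in control Huh7 libraries, so library 3 lay on the other side of the controls from libraries 1 and 2. In HepG2 it held 64.5% in treated and 65.3% in control libraries.

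Taken over all 10 genes, tubulins held 0.259% of fragments in treated and 0.377% in control Huh7 libraries, and 0.269% in treated and 0.386% in control HepG2 libraries. In treated Huh7 libraries the order of mean levels was TUBB, TUBA1B, TUBB4B, TUBA1A, TUBA1C, TUBB2B, TUBB2A, TUBB6, TUBA4A and TUBB3, and only TUBB2B and TUBB2A overlapped. In control Huh7 libraries TUBB4B stood above TUBA1B and TUBA1C above TUBA1A, so these neighbours changed places, and TUBB2A and TUBB2B again overlapped. In HepG2 libraries the order was TUBB, TUBB4B, TUBA1B, TUBA1C, TUBB6, TUBA4A, TUBA1A and TUBB2A with and without geniposide, with TUBB2B and TUBB3 overlapping at the bottom.

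Control libraries of the lines differed in 7 of 9 members, 4 higher and 3 lower in HepG2, beside 71.8% of all genes called, 36.1% higher and 35.8% lower. The same 7 did not overlap between the lines, beside 40.1% of all genes in each direction. Both counts are near the share of all genes. TUBA4A was at 54.2 ± 0.359 FPKM in HepG2 and 1.76 ± 0.0878 FPKM in Huh7 controls (SD, n = 3 each), a difference of 4.32 (limma adjusted p = 3.98e-14). TUBB6 was at 69.3 ± 2.21 FPKM in HepG2 and 23.4 ± 1.11 FPKM in Huh7 controls (1.52, limma adjusted p = 6.17e-10). TUBB2B, at 0.167 ± 0.144 FPKM in HepG2 and 28.4 ± 0.0956 FPKM in Huh7 controls, differed by −4.66 (limma adjusted p = 1.01e-09).

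TUBB2A was at 3.68 ± 0.233 FPKM in HepG2 and 29.5 ± 1.63 FPKM in Huh7 controls (−2.70, limma adjusted p = 4.22e-10), and TUBA1A at 10.6 ± 0.465 FPKM in HepG2 and 33.6 ± 0.770 FPKM in Huh7 controls (−1.57, limma adjusted p = 1.50e-10). Of the isotypes best known from neurons, TUBA1A, TUBB2A and TUBB2B were thus higher in Huh7. TUBB3, below the filter, went the other way, at 0.229 FPKM in HepG2 and 0.0449 FPKM in Huh7 controls, without overlap. Its difference of 0.23 did not pass the test without the filter (limma adjusted p = 0.0902). Voom on recovered fragments gave 2.07 (adjusted p = 0.00994), at few fragments. Of 12 neuron markers, SNAP25 and NEFH reached 1 FPKM in HepG2 controls, where the list summed to 7.93 to 9.28 FPKM. In Huh7 controls it was RBFOX3, SYP, SYT1, NEFL and NEFM, with a sum of 32.8 to 34.4 FPKM, and ELAVL4 and INA were at 0 in both. Of the 7 tested, 2 were higher and 5 lower in HepG2 than in Huh7 controls. Their part in the tubulin differences was not tested.

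Smaller differences between the lines depend on scaling, because the authors' library total was above the recovered fragments in Huh7 and below them in HepG2. With TPM scaling the median change of all genes moved to −0.27, and the split of called genes moved to 36.6% higher, against 50.2% as deposited. TUBA1B (0.06 as deposited, limma adjusted p = 0.305) then became −0.22 (adjusted p = 0.000617) and TUBB4B (0.01, adjusted p = 0.833) became −0.26 (adjusted p = 0.000854), both still above that median. TUBB lost its call (0.37 with adjusted p = 0.0114 as deposited, 0.09 with 0.468 under TPM). TPM also moved the treatment split in Huh7 to 61.6% of called genes upward, against 47.5%, and the median of all genes by 0.06.

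Genes of the wider tubulin pathway were counted on lists taken from textbook roles. Each count stands beside 16.4% upward and 18.1% downward of all genes in Huh7, and 21.0% and 21.5% in HepG2. Among 21 folding factors, the subunits of TRiC and prefoldin and the tubulin cofactors, 0 rose and 13 fell in Huh7 (median −0.33), and 1 rose and 13 fell in HepG2 (median −0.43). The TRiC subunit CCT6A had 56.6 ± 4.41 FPKM in treated and 111 ± 1.05 FPKM in control Huh7 libraries (−0.96, limma adjusted p = 3.13e-06), and 81.5 ± 3.52 FPKM in treated and 155 ± 2.82 FPKM in control HepG2 libraries (−0.92, limma adjusted p = 1.15e-06). TCP1, another subunit, fell by 0.68 in Huh7 (limma adjusted p = 4.71e-06) and by 0.81 in HepG2 (6.31e-07). CCT5 fell by 0.42 and 0.94, and CCT8 by 0.70 and 0.46, in Huh7 and HepG2. The tubulin cofactors were mixed when treated Huh7 library 3 was left out. In Huh7 TBCA (−0.37) and TBCD (−0.49) then fell, and TBCB (0.05), TBCC (−0.17), TBCE (−0.08), TBCEL (0.06) and ARL2 (−0.01) did not pass. In HepG2 TBCA (−0.41), TBCB (−0.62), TBCD (−0.30) and ARL2 (−0.34) fell, TBCC (−0.16) and TBCE (−0.10) did not pass, and TBCEL (0.33) rose.

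In the autoregulation pathway 2 of 12 genes rose and 3 fell in Huh7 (median 0.03), and 2 rose and 5 fell in HepG2 (median −0.19). Without treated Huh7 library 3 the Huh7 median was −0.04. SCAPER, the adaptor between TTC5 and the deadenylase, had 2.17 ± 0.0447 FPKM in treated and 1.55 ± 0.0991 FPKM in control Huh7 libraries (0.32, limma adjusted p = 0.00247), and 2.29 ± 0.138 FPKM in treated and 0.794 ± 0.0147 FPKM in control HepG2 libraries (0.87, limma adjusted p = 2.18e-06). CNOT6, a catalytic subunit of the deadenylase, fell by 0.33 in Huh7 (limma adjusted p = 0.000846) and by 0.43 in HepG2 (9.68e-05). CNOT7, another catalytic subunit, fell by 0.54 in Huh7 (limma adjusted p = 0.000281), and differed by −0.19 in HepG2, where it did not pass (0.0516) unless treated Huh7 library 3 was left out (0.0158). CNOT9 fell in HepG2, by 0.56 (limma adjusted p = 8.21e-05), and without treated Huh7 library 3 also in Huh7, by 0.15 (adjusted p = 0.0174).

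Of 16 enzymes that modify tubulin, 4 rose and 2 fell in Huh7, which is near the share of all genes called there (34.5%), and 5 rose and 4 fell in HepG2, beside 42.5%. TTLL1, a glutamylase subunit, rose by 0.77 in Huh7 (limma adjusted p = 0.00166) and by 0.87 in HepG2 (0.000469), and AGTPBP1, which trims glutamate chains, rose by 0.26 (0.021) and 0.51 (0.000295). TTL, the ligase that puts the tail tyrosine back on alpha tubulin, fell in HepG2 by 0.50 (limma adjusted p = 0.000238), to 5.45 FPKM with geniposide against 8.12 FPKM in controls. TTLL12 fell in Huh7, by 0.65 (limma adjusted p = 5.02e-06).

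Among other tubulin genes, 6 of 12 passed the filter. TUBE1, encoding epsilon tubulin of centrioles, had 7.79, 8.41 and 12.1 FPKM in treated and 5.08, 4.64 and 4.83 FPKM in control Huh7 libraries (0.81, limma adjusted p = 0.000582), and rose by 0.37 in HepG2 (0.0308). TUBG1, the gamma tubulin that nucleates microtubules, fell in HepG2, to 28.1 ± 2.12 FPKM with geniposide against 48.9 ± 1.15 FPKM in controls (−0.78, limma adjusted p = 0.000295), while Huh7 libraries had 28.6, 28.6 and 40.7 FPKM with geniposide and 30.5, 31.3 and 32.2 FPKM in controls. There treated libraries 1 and 2 lay below all controls and library 3 above them, and the difference was 0.04 (limma adjusted p = 0.845), or −0.13 without library 3 (adjusted p = 0.0789). TUBG2, its close copy, rose in HepG2 by 0.32 (limma adjusted p = 0.00943). TUBB4A, a beta isotype of myelinating cells, had 9.59, 10.04 and 3.57 FPKM in treated Huh7 libraries, against 11.7, 13.7 and 12.4 FPKM in controls, a difference of −0.74 that did not pass the test (limma adjusted p = 0.0542). Library 3 was again the lowest, and without it the difference was −0.33 and passed (adjusted p = 0.0178). Pseudogenes of tubulins and TUBA4B, 40 in all, summed to 6.06 to 20.1 FPKM per library.

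Proteins that bind, cut or organise microtubules gave mixed counts. Of 20 stabilising and end-binding genes 4 rose and 5 fell in Huh7 and 3 rose and 7 fell in HepG2. Of 12 destabilising and severing genes 1 rose and 5 fell in Huh7 and 2 rose and 3 fell in HepG2. CAMSAP3, which caps minus ends, rose in HepG2, to 9.87 ± 0.328 FPKM with geniposide against 5.39 ± 0.151 FPKM in controls (0.77, limma adjusted p = 0.000459). STMN1, which binds free dimers, fell by 0.23 in Huh7 (limma adjusted p = 0.012) and by 0.28 in HepG2 (0.00327).

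Of 17 genes of the gamma-tubulin ring complex and of augmin, 4 rose and 3 fell in Huh7 and 2 rose and 4 fell in HepG2, with the augmin subunit HAUS4 up in both lines (0.77 and 0.30, limma adjusted p = 8.46e-05 and 0.0132). HAUS1, another augmin subunit, was down in both (−0.44 and −0.71, limma adjusted p = 0.00644 and 0.000262). Among 19 cytoplasmic motor genes, 5 rose and 4 fell in Huh7 and 2 rose and 6 fell in HepG2. The dynein light chain DYNLL1 fell by 0.46 and 0.62 (limma adjusted p = 0.00107 and 0.000102), and the kinesin KIF5B by 0.48 and 0.16 (limma adjusted p = 8.2e-05 and 0.0319), in Huh7 and HepG2.

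Of 20 genes of mitosis 0 rose and 15 fell in Huh7 (median −0.44), beside 18.1% of all genes downward, and 0 rose and 14 fell in HepG2 (median −0.26), beside 21.5%. Their summed level was 456 to 465 FPKM in treated and 650 to 653 FPKM in control Huh7 libraries, and 670 to 678 FPKM in treated and 802 to 807 FPKM in control HepG2 libraries. PLK1 and AURKA, kinases of spindle assembly, fell by 0.70 and 0.80 in Huh7 (limma adjusted p = 5.72e-06 and 1.78e-05) and by 0.25 and 0.44 in HepG2 (0.00201 and 0.000365). Fibroblast markers moved in HepG2 too, where 6 of 10 reached 1 FPKM and COL1A2 and POSTN were at 0. Their sum was 283 to 288 FPKM in treated and 184 to 191 FPKM in control HepG2 libraries, and 28.8 to 38.9 FPKM in treated and 29.02 to 30.7 FPKM in control Huh7 libraries. Of the 6 fibroblast markers tested, 4 rose and 1 fell in HepG2, and 1 rose and 0 fell in Huh7. The part of either list in the tubulin changes was not tested.

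Without treated Huh7 library 3 the share of all genes called in Huh7 was 22.6% upward and 23.5% downward. The members were then 2 up and 7 down in Huh7, the folding factors 0 up and 15 down, the autoregulation genes 3 up and 4 down, the modifying enzymes 6 up and 2 down, and the other tubulin genes 1 up and 2 down. The stabilising genes had 4 up and 5 down, as with the library, and the destabilising genes 0 up and 5 down, fewer than with it. The ring complex and augmin had 5 up and 5 down, the motors 7 up and 6 down, and the mitosis genes 0 up and 18 down. The fibroblast markers had 2 up and 1 down. In HepG2, whose own libraries were unaltered but whose variances are estimated over all groups, 26.5% of all genes were then called upward and 27.3% downward. There the folding factors were 1 up and 16 down, the mitosis genes 1 up and 17 down and the autoregulation genes 2 up and 7 down. The modifying enzymes were 7 up and 6 down, the other tubulin genes 2 up and 2 down and the stabilising genes 4 up and 8 down. The destabilising genes were 3 up and 4 down, the ring complex and augmin 2 up and 6 down and the motors 3 up and 7 down. The fibroblast markers were 4 up and 2 down.

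**Figure D4:**
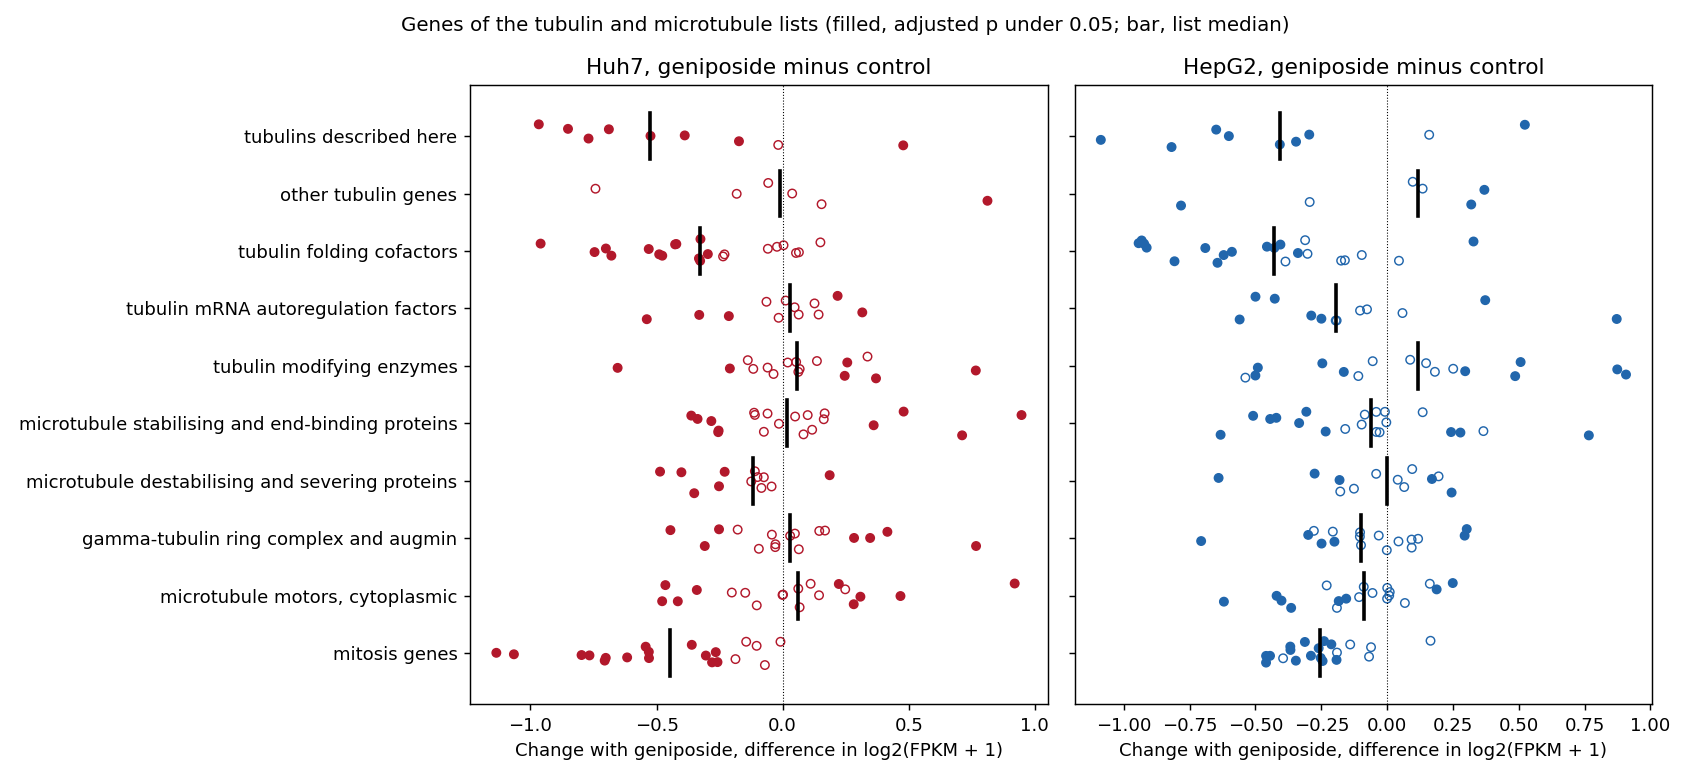
Change with geniposide of each tested gene on the tubulin and microtubule lists, in Huh7 (left) and HepG2 (right), as the limma difference in log2(FPKM + 1). Points are genes, filled where the adjusted p is under 0.05, and bars are list medians. The medians of the tubulins (−0.52 and −0.41), folding factors (−0.33 and −0.43) and mitosis genes (−0.44 and −0.26) lie left of 0 in both lines.

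Genes most like each member were found from profiles over the 12 libraries, each taken as log2(FPKM + 1) minus the control mean of the same line, with the root mean square difference as the measure and 12141 protein-coding genes as candidates. Nearest to TUBA1B was KRT8, a keratin of simple epithelia, at 0.0308, where the profile of TUBA1B itself had a root mean square of 0.605. KRT8 had 14.2 FPKM in treated and 20.5 FPKM in control Huh7 libraries, and 161 FPKM in treated and 336 FPKM in control HepG2 libraries. UBE2R2, a ubiquitin-conjugating enzyme, was nearest to TUBA1A (0.0491), PSPC1 to TUBA1C (0.0580), PTGES2 to TUBA4A (0.0487), FBXO9 to TUBB4B (0.0667) and BEND3 to TUBB6 (0.0564). PEBP1, a kinase inhibitor, was nearest to TUBB, with 86.8 FPKM in treated and 141 FPKM in control Huh7 libraries, and 180 FPKM in treated and 233 FPKM in control HepG2 libraries. DHX38 was nearest to TUBB2A (0.0754) and SCN4B to TUBB2B (0.0752). The profiles of TUBB2A and TUBB2B themselves had smaller root mean squares than that of TUBA1B, at 0.278 and 0.214. For no member did another of the 9 come nearer than the gene named for it. That gene was the nearest of 12141 candidates, against 8 other members. This comparison therefore cannot show whether the tubulins are less alike than other genes. The closest members were TUBA1C and TUBB6, at 0.0815. These are descriptions over 12 libraries that share controls and treatment.

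The promoters of the alpha genes TUBA1A and TUBA1B, which moved in opposite directions, and of TUBB4B, which fell furthest in Huh7, are shown as the 250 bases before the RefSeq start on GRCh38.p14, 5′ to 3′ on the gene's own strand. Capitals mark CCAAT, a site of the factor NF-Y that many cell-cycle promoters carry, and the TATA-like TATANA, each on either strand.
TUBA1A, chr12:49189081-49189330, minus strand: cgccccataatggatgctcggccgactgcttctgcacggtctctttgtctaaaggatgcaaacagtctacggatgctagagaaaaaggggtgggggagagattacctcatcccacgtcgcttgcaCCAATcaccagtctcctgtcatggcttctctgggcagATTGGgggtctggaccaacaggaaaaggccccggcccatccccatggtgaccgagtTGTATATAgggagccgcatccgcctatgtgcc
TUBA1B, chr12:49131396-49131645, minus strand: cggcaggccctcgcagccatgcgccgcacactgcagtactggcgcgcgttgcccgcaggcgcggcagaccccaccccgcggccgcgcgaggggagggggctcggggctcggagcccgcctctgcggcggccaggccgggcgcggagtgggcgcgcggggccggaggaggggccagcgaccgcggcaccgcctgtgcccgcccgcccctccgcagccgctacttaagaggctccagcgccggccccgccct
TUBB4B, chr9:137241037-137241286, plus strand: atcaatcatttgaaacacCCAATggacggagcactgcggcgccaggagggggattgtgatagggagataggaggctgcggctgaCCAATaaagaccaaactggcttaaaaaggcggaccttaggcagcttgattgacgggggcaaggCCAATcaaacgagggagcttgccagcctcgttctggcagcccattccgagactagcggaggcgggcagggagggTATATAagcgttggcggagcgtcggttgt
The TUBA1A window held 2 CCAAT and overlapping TATANA matches that begin 32 and 30 bases before the start. The TUBB4B window held 3 CCAAT and a TATANA 29 bases before it. TUBA1B had neither in this window, but 3 GGGCGG, the box bound by SP1-type factors, and 81.2% G and C.

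RefSeq starts were matched for all 10 members, in 15 windows. CCAAT lay in 9 of the 15 windows, covering 7 of the 10 genes, and in 32.0% of 35116 windows of the same length over all genes. Windows of a gene with several starts can overlap and hold the same site, so the counts of genes are given too. TATANA lay in 4 of the 15 (4 genes), against 17.7% of all windows, and GGGCGG in 9 of the 15 (8 genes), against 42.6%. The letters TTTGAA, part of the element that represses cell-cycle genes outside mitosis, lay in 3 of the 15 (2 genes), against 13.3%. CACGTG, the E-box, lay in 2 (2 genes), against 6.34% of all windows. TGACGT, the core of cAMP-response sites, lay in 2 (2 genes), against 7.10%. GAANNTTC, the unit of heat-shock elements, lay in 2 overlapping windows of 1 gene, TUBA1C, which hold the same site, against 5.78%. Both strands were searched, the motifs share bases in places, and a match is no evidence of binding.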

How the data were processed

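Poly(A) RNA was sequenced from 12 samples in 4 groups of 3, without strand marking per the labels' protocols. CASAVA, fastp and build hg38 are named, without versions, per the submitters' processing notes. No label or header names the aligner or counter. The deposited table holds FPKM for 58735 genes in 12 columns matched by title, with 0 columns of other samples. The authors computed FPKM before deposit, and the table's gene lengths are, per the file headers, those it gives beside each gene. FPKM times length gave whole fragments for 100% of values within 0.05, and 15056655 to 17211659 fragments per library. The total the authors divided by was 0.895 to 1.17 times this sum. Member coordinates matched GENCODE 29. A count of 0 allows up to 3 fragments, by counting error only. The lowest chi-square between replicates was 2.29 per degree of freedom, so none was merged.

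The test was limma (version 3.58.1, under R 4.3.3) on log2(FPKM + 1), which understates changes of low genes. A single model with 4 group means over 12 libraries (8 residual degrees of freedom) used trended variances, two-sided tests and Benjamini-Hochberg adjustment over the 15518 genes with 1 FPKM or more in at least 3 libraries. A gene below the filter was read from the fit without it. The threshold was an adjusted p of 0.05. The fit was also run on simulated data, with the same spread of a gene in all groups and no library standing apart. That run therefore cannot show the error rate with treated Huh7 library 3 included. Alternatives were a pseudocount of 0.1, no filter, a mean of 5 FPKM, TPM and median-of-ratios scaling, voom on recovered fragments, each line alone, the replicate number as a block, copies summed, each library left out and, chosen after seeing the data, the recovered total and the lists without treated Huh7 library 3. Lists were counted without a set test. The members and lists were chosen with earlier results of these data known. Named genes are the 10 members, up to 3 called genes with the smallest p per pathway list and treatment comparison, of which some are given and 1 is not reported here, and the nearest profiles of each member that passed the filter; TUBB4A, TUBB2BP1 and the overlapping genes were added after their values were seen, as were the second-line values of genes named by the first. Coding sequences came from GENCODE 29 transcripts and promoters from RefSeq, GRCh38.p14.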

Additional observations from a re-analysis of the deposited data

Results flagged for a closer look

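The effect of geniposide differed between the lines for 3 of 9 tested tubulins by the test of the difference itself. That is near the 27.8% of all genes called in this comparison. The HepG2 effect minus the Huh7 effect on the log2 scale was −0.56 for TUBA1B, −0.65 for TUBA4A and 0.67 for TUBB4B. Beta over alpha FPKM moved in opposite directions: its mean with geniposide differed from that in controls by −0.465 in Huh7 and by 0.936 in HepG2, with all 3 treated libraries on the same side of all 3 controls in each line. The difference between these movements was not tested.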

How the results depend on the processing

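TUBA1A, TUBA1B, TUBA1C, TUBB4B and TUBB6 kept the direction and call of their treatment effects in both lines under all 21 alternatives that keep genes apart, as did TUBA1B, TUBA4A and TUBB4B for the difference between lines under 20. Members called ranged from 7 to 9 in Huh7 with 1 library left out, stayed at 8 in HepG2 and 7 between controls, and were 3 to 4 for the difference. With TUBA1A, TUBA1B and TUBA1C summed, changes were −0.43 (Huh7), −0.85 (HepG2), −0.42 (difference) and 0.066 (controls); with TUBB2A and TUBB2B summed, −0.28 (HepG2) and −0.091 (difference). TUBB2B in Huh7 was 0.059, 0.057 and 0.058 with TPM, voom and the recovered total, 0.0020 with median-of-ratios scaling and −0.15 to 0.24 with 1 library left out, the highest without treated Huh7 library 3; its difference between lines then ran from −0.084 to 0.31. The TUBB2A difference was −0.043 with a pseudocount of 0.1, −0.032 with TPM, −0.12 with voom, and −0.012 with the recovered total. It was −0.059 to 0.10 with 1 library left out. With all libraries the TUBB2A difference was 0.042, and without treated Huh7 library 3 it was −0.021. For TUBB2B these values were 0.18 and −0.084. The TUBA1A difference was −0.024 with the recovered total. Between controls TUBA1B was −0.22, −0.23 and −0.22 and TUBB4B −0.26, −0.27 and −0.27 with TPM, voom and the recovered total, and TUBB4B −0.019 with median-of-ratios scaling. With 1 library left out TUBB3 in HepG2 ran from −0.042 (without treated HepG2 library 2) to 0.10, and its highest value over all alternatives was 0.18. Genes called between controls numbered 6027 at a mean of 5 FPKM, where fewer genes were tested, against 11146, and genes called in Huh7 3266 with Huh7 alone, against 5357; the cause was not tested for the second. Replicate numbers did not pair samples (same-number correlations of −0.06 to 0.02), and with the replicate block 8, 8, 3 and 7 members were called, among 5127, 6410, 4007 and 11111 genes (Huh7, HepG2, difference, controls).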
